A study of Drosophila melanogaster with 4 samples.

Results

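The KDM4A-enriched regions described here lie in the interior of 3R, the right arm of the third chromosome of Drosophila melanogaster. A region was taken as a member when its midpoint lay in 3R:2000001-2479999, 3R:2830001-12474999 or 3R:12815001-26905053 on release 5 of the genome. This leaves out the 2 Mb next to the centromere, 1 Mb at the telomere and a pair of stretches inside the arm, and keeps 24.2 Mb. The choice uses position alone. The list of ChIP replicate 1 had 1909 members of 11489 regions in all, that of replicate 2 had 1129 of 5780, and the combined list of the series had 1819 of 11016.

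Chromatin was taken from 3rd instar larvae of the wild-type strain Oregon-R, and all libraries share this strain and stage. The series has 2 ChIP libraries, immunoprecipitated with a rabbit polyclonal serum to KDM4A (JMJD2A) that had been affinity-purified, and 2 libraries of input DNA. The free-text description of ChIP replicate 2 names input DNA and that of input replicate 1 names ChIP DNA. Titles and source names, which match each other for every sample, set the groups, so every comparison with replicate 2 rests on those labels. Regions of the input libraries were not analysed here, so the comparisons are between positions and between the ChIP replicates. The labels do not say whether these replicates came from separate batches of larvae. The chromatin is that of whole larvae, so a region bound strongly in a few cells and one bound weakly in many cannot be told apart.

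KDM4A is a histone demethylase of the JmjC family, enzymes that remove methyl groups from lysines of histone tails. It acts on methylated lysines of histone H3 and binds the heterochromatin protein HP1a. The interior of a chromosome arm is mostly euchromatin, in which gene-rich stretches alternate with stretches of few or silent genes. Genes are not named, because the gene table used here is of release 6 and its positions do not apply; regions go by their coordinates.

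KDM4A regions covered 21.3% of the 3R interior by the list of replicate 1 and 13.0% by that of replicate 2 (mean 17.2% ± 5.89, SD, n = 2). The combined list covered 21.1%. Per Mb, replicate 1 had 78.8 regions, replicate 2 had 46.6 and the combined list had 75.1. The shorter list had less cover, while the regions themselves were of like width, with a median of 2178 bp for replicate 1, 2298 bp for replicate 2 and 2183 bp for combined regions. The middle 50% of widths spanned 1722 to 3129 bp for replicate 1 regions, while for replicate 2 regions they spanned 1986 to 3149 bp. Regions over 10 kb were few, with 13 for replicate 1, 6 for replicate 2 and 18 combined, and held 3.37%, 2.21% and 5.18% of the bases in regions. Of the 13 in replicate 1, 11 were touched by replicate 2.

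Cover of the 3R interior was close to that of the 2L, 3L and X interiors, cut at the same distances from their ends. In replicate 1, 2L had 21.9%, 3L 23.5% and the X 23.4%, so 3R was the lowest of the 4. In replicate 2, 2L had 11.9% and 3L 12.4%. There 3R was the highest by a small margin, at 12.99% against 12.95% for the X. Stretches inside the arm were left out on 3R only. Replicate 1 gave a ratio of 3R to the other 3 pooled of 0.930 and replicate 2 one of 1.05 (mean 0.988 ± 0.0815, SD, n = 2). With the left-out stretches of 3R kept in, the mean ratio was 0.975. The replicates lay on opposite sides of equality, and with 2 of them no test was made.

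Along the arm, cover changed from one stretch to the next. Windows of 1 Mb were taken up to 26 Mb, so their order leaves out the end of the interior, from there to 26905053. Stretches of 100 kb in that end had 1.36% to 21.1% cover in replicate 1 and 1.51% to 11.5% in replicate 2. In windows of 1 Mb the share of bases in replicate 1 regions ran from 11.3% between 23 and 24 Mb to 36.7% between 12 and 13 Mb, where only 659999 bases were counted. Among windows counted in full, the highest was 34.8%, between 5 and 6 Mb. The 3 windows from 22 to 25 Mb were the lowest of the 24 in replicate 1, at 13.1%, 11.3% and 13.2%. In replicate 2 they had 6.86%, 9.68% and 10.1%, and only the first of them was among its lowest 3. The highest full window of replicate 2 was that from 20 to 21 Mb, with 20.9% (29.8% in replicate 1). Across the 24 windows the replicates correlated with r = 0.84 and rho = 0.84, and neighbouring windows are not independent, so no p is given.

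The relation between the replicates was uneven along the arm. Cover in replicate 2 came to 42.6% of that in replicate 1 between 3 and 4 Mb and to 85.4% between 23 and 24 Mb. The 3 windows from 23 to 26 Mb had 85.4%, 76.7% and 83.3%, the highest 3 values of the 24 windows. Read depth and its variation along the arm are not in the lists, and their part in this was not tested.

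At the scale of 100 kb, KDM4A cover ranged from none to more than 50% of a bin. Of 239 bins wholly inside the interval, the median bin was covered to 19.6% by replicate 1, 11.2% by replicate 2 and 19.9% by combined regions. The highest bin reached 57.8%, 48.9% and 61.4%. Replicate 1 had 9 bins with no covered base, replicate 2 had 33 and the combined list had 15. The 9 empty bins of replicate 1 were all empty in replicate 2 as well. Bins held a mean of 7.86 region midpoints in replicate 1, with a variance 2.92 times that mean, and 4.64 in replicate 2, with a variance 2.73 times it. On the 2L, 3L and X interiors this ratio was 2.41 to 2.60 for replicate 1 and 2.29 to 2.80 for replicate 2.

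**Figure D1:**
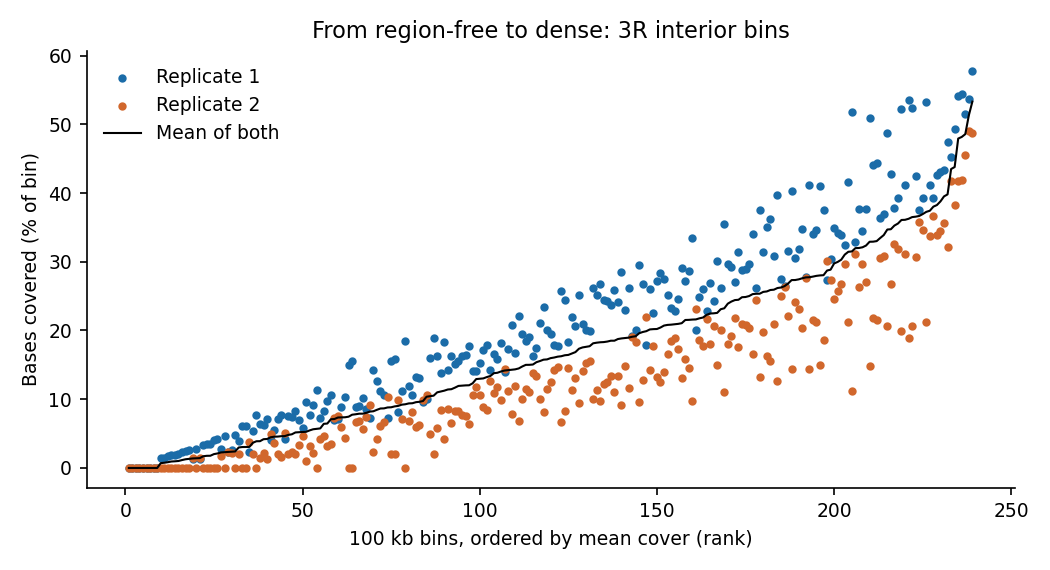
Share of bases in KDM4A regions (percent of bin, vertical axis) in 239 bins of 100 kb on the 3R interior, ordered by the mean of both replicates (rank, horizontal axis). Points are the replicates and the line is their mean; replicate 1 reaches 57.8% and replicate 2 reaches 48.9%, and 9 bins are empty in both.

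Dense bins lay in many parts of the arm, some of them single and some in runs. From 3R:19800001 to 3R:20200000 each bin had 36.4% to 49.3% cover by replicate 1 and 30.5% to 38.3% by replicate 2. Cover of a bin correlated with that of the next bin with r = 0.18 in replicate 1 and 0.11 in replicate 2 (236 neighbouring pairs, no p given). The densest bin by the mean of the replicates was 3R:4800001-4900000, with 57.8% cover by replicate 1 and 48.8% by replicate 2. The bins before and after it had means of 18.3% and 9.27%. The next 2 in order were neighbours, 3R:11100001-11200000 (53.6% and 48.9%) and 3R:11000001-11100000 (51.5% and 45.6%). They were followed by 3R:5500001-5600000 (54.5% and 41.8%) and 3R:8200001-8300000 (54.1% and 41.8%). These 5 bins were ranks 1, 4, 10, 2 and 3 in replicate 1 and ranks 2, 1, 3, 4 and 5 in replicate 2.

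The densest bin shows what such cover is made of. In replicate 1 it held 17 regions and in replicate 2 14 regions, most of them 2 to 5 kb wide. The widest was 3R:4872393-4884367 in replicate 1 (11975 bp, score 1.17). In replicate 2 the same stretch was divided between 3R:4872429-4875238 (2810 bp, score 1.32) and 3R:4875280-4884441 (9162 bp, score 0.91). The strongest region of the bin by replicate 1 score was 3R:4891648-4897151 (score 2.01, rank 14 of 1909 in its list). Replicate 2 had 3R:4892973-4896902 there, with a score of 1.11 (rank 188 of 1129). The score is the authors' own enrichment value, read here as log2. Scores were ranked within a list, among its members on the 3R interior. Between lists they were set side by side or correlated, never subtracted.

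At the sparse end, 9 bins had no region of either replicate. They begin at 6800001, 7100001, 15900001, 16200001, 18700001, 23200001, 23900001, 24200001 and 25200001. The combined list was empty in 7 of them and covered 1.09% of the bin at 7100001 and 1.04% of that at 15900001. Sparse and dense bins could be adjacent. The bin before the empty one at 7100001 had a mean of 35.3%, and the one after it 21.6%.

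Region-free stretches of at least 100 kb in both replicates numbered 20 and added up to 3.09 Mb, or 12.8% of the interior. The longest was 3R:23815870-24063834 (248.0 kb), followed by 3R:23127437-23372116 (244.7 kb), 3R:18620947-18838443 (217.5 kb), 3R:6776777-6979082 (202.3 kb) and 3R:24172208-24369556 (197.3 kb). These 5 held no combined region wholly inside them, as was the case for 16 of the 20. Of the 20 stretches, 6 began beyond 22 Mb and made up 1.09 Mb. Replicate 2 alone was free over 357.2 kb at 3R:23788170-24145370, where replicate 1 had 3 regions that covered 1.59% of the bases. Between most neighbouring regions the distance was short. The median gap was 3062 bp in replicate 1 and 4844 bp in replicate 2, and 61.4% and 50.7% of gaps were at most 5 kb.

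Cover of the bins rose and fell together in the replicates, while the sets of the very densest and sparsest bins were shared in part. Covered bases over the 239 bins correlated with r = 0.85 and rho = 0.88, and the number of regions with r = 0.81 and rho = 0.82. Bins share a library and their neighbours, so these are descriptions with no p. On the other interiors r was 0.87 (2L), 0.84 (3L) and 0.82 (X). Among the 23 densest bins of each replicate, 12 were the same, or 52.2% of each set; in bins of 200 kb it was 4 of 11. Of the 23 sparsest bins of replicate 1, 18 (78.3%) were among the 33 that tied as sparsest in replicate 2, which makes 54.5% of the latter. Replicate 1 covered more than replicate 2 in 214 bins, less in 16 and equally much, at 0, in 9. The excess of replicate 1 had a median of 6.55 percentage points.

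**Figure D2:**
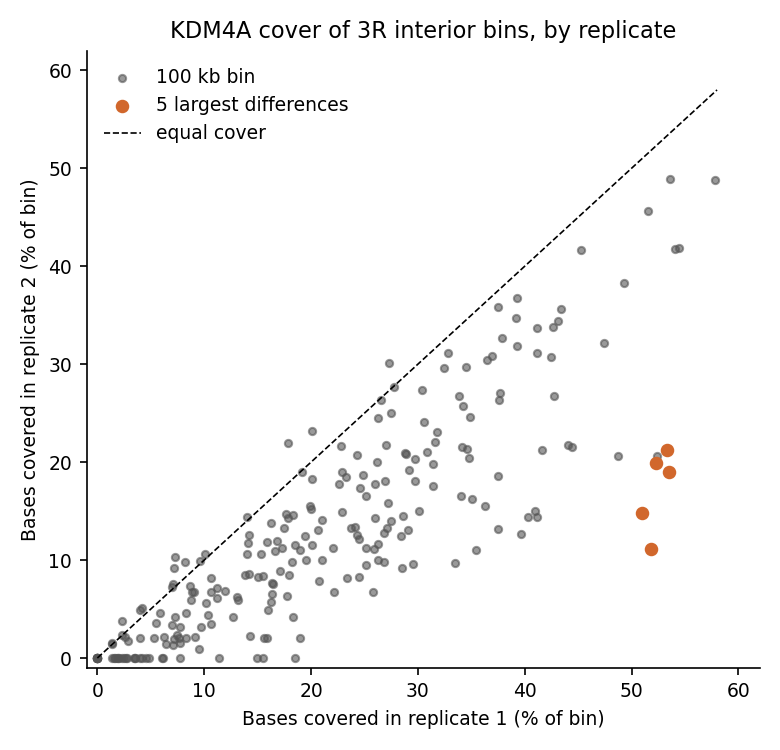
Share of bases covered in replicate 1 (percent of bin, horizontal axis) and replicate 2 (percent of bin, vertical axis) in each 100 kb bin of the 3R interior; the dashed line marks equal cover. Of 239 bins 214 lie below the line, and the 5 coloured bins, where replicate 1 exceeds replicate 2 by 32.0 to 40.7 percentage points, have from 51.0% to 53.5% cover in replicate 1.

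Some bins had far more cover in replicate 1 than in replicate 2, and these were picked out after their values were seen. The largest difference was in 3R:10500001-10600000, where replicate 1 covered 51.8% and replicate 2 11.2%, with 48.5% by combined regions. It was rank 9 of 239 in replicate 1 and rank 120 in replicate 2. Replicate 1 had 17 regions there, of which the widest was 3R:10556482-10572173 (15692 bp, score 1.41), and replicate 2 had 4. The 3 strongest of those 4 were 3R:10521980-10524199, 3R:10548917-10551140 and 3R:10563284-10568384, with scores of 1.15, 1.19 and 1.19. Each lay wholly inside one of the 3 best-scoring replicate 1 regions of the bin. The fourth had the lowest score of the replicate 2 members on the 3R interior (0.20). Replicate 2 covered only part of those 3 regions, with 5101 bp inside the one of 15692 bp, so cover differed inside the strong regions as well as between them. The next differences were in the bins at 16600001 (51.0% and 14.8%), 17100001 (53.5% and 19.0%), 19000001 (52.3% and 19.9%) and 17400001 (53.3% and 21.2%). In replicate 2 these bins were ranks 85, 63, 59 and 49, above its middle rank. The lowest value of replicate 1 minus replicate 2 was -4.06 percentage points, in the bin at 23000001 (17.9% and 21.9%).

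Neighbouring regions with at most 5 kb between them were joined, and chains of 5 or more were called clusters. Replicate 1 had 113 clusters that took in 832 of its 1909 regions (43.6%), with a median span of 27.9 kb. Replicate 2 had 49, with 286 of 1129 regions (25.3%) and a median span of 25.6 kb. Regions with no neighbour within 5 kb numbered 367 in replicate 1 (19.2%) and 294 of 1129 in replicate 2. A longer list makes longer chains at a fixed distance, so these counts are not comparable as a measure of clustering. With replicate 1 cut by score to the 1129 best regions, as many as replicate 2 has, it had 26 clusters with 13.9% of its regions, fewer than the 49 of replicate 2. The order of the replicates thus turned round at equal length, but only replicate 1 was thinned. Thinning by score lowers the count: with both lists kept at or above their median score, the mean number of clusters went from 81 to 10. These counts therefore do not show which replicate is the more clustered. The share of regions in clusters on the 2L, 3L and X interiors was 41.8% to 43.9% in replicate 1 and 12.2% to 21.3% in replicate 2, below the 3R value in replicate 2. No test of this was made.

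The largest cluster of replicate 1, 3R:5502615-5636179, joined 25 regions over 133.6 kb, and its regions covered 56.0% of that span. Replicate 2 had 19 regions there, covering 44.0%. The next in replicate 1 were 3R:20847722-20934444 (17 regions, 72.2% covered, 45.9% in replicate 2) and 3R:2168799-2239907 (17 regions, 70.8% and 38.5%). Then came 3R:12889672-12950695 (15 regions, 68.2% and 26.8%) and 3R:10514609-10581925 (14 regions, 69.2% and 16.6%), the longest of 3 with 14 regions. The last lies in the bin with the largest difference between the replicates.

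In replicate 2 the largest cluster was 3R:19954330-20001031, with 10 regions over 46.7 kb and 52.9% cover, where replicate 1 had 9 regions and 52.6% cover. It was followed by 3R:20450334-20488573 with 9 regions, where replicate 1 had 6 regions and covered less (37.5% against 63.2%). The third was 3R:11144580-11190996 with 8 regions, where replicate 1 had 11 and again covered less (53.7% against 69.9%). The fourth was 3R:5565522-5605188 with 8 regions, inside the largest cluster of replicate 1, and the fifth 3R:11083826-11120471, the longest of 4 with 7. Of the 49 clusters of replicate 2, 41 (83.7%) touched a cluster of replicate 1, and of the 113 of replicate 1, 44 (38.9%) touched one of replicate 2. Only 2 clusters of replicate 1 had no replicate 2 region at all.

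**Figure D3:**
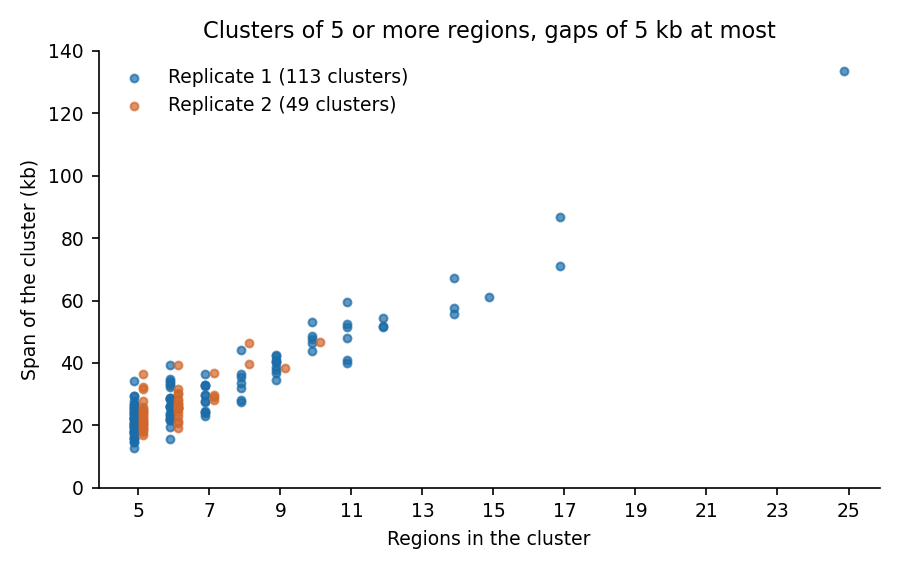
Number of regions (horizontal axis) and span (kb, vertical axis) of each cluster of 5 or more KDM4A regions on the 3R interior, with gaps of at most 5 kb. Replicate 1 has 113 clusters, of which the largest joins 25 regions over 133.6 kb, and replicate 2 has 49, of which the largest joins 10 over 46.7 kb.

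Region by region, replicate 1 touched 1027 of the 1129 replicate 2 regions by at least 1 bp (91.0%, exact Clopper-Pearson 95% interval 89.1 to 92.6). Over all sequences of the series the share was 91.8%. In the other direction 1050 of 1909 replicate 1 regions were found in replicate 2 (55.0%, 52.7 to 57.3), against 45.8% over all sequences. On the other interiors the latter share was 49.6% for 2L (47.1 to 52.1), 49.4% for 3L (47.1 to 51.7) and 53.7% for the X (51.2 to 56.2). For this latter share the intervals of 3R and 2L did not overlap, nor did those of 3R and 3L. Those of 3R and the X did. All these intervals cover counting error only, neighbouring regions are not independent, and no test was made. The bases in replicate 2 regions came to 60.9% of the number in replicate 1 regions on 3R and to 53.0% to 55.4% on the others.

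The replicates shared 2.56 Mb of 5.75 Mb covered in either, a Jaccard index of 44.4% (2L 42.3%, 3L 41.3% and X 45.4%). They amounted to 81.2% of the bases in replicate 2 regions and 49.5% of those in replicate 1 regions. In 757 cases a single region of one replicate met a single region of the other. Their midpoints were a median of 227 bp apart, and 531 of the 757 pairs (70.1%) lay within 500 bp. Replicate 1 was the wider in 449 pairs and replicate 2 in 307. Scores within pairs correlated with r = 0.72 and rho = 0.67, and widths with r = 0.47 and rho = 0.51, as a description over regions.

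Which regions recurred followed width more than score in replicate 1, and both in replicate 2. A region counts as found at 1 bp of overlap, so a wider one has more room to meet another. How much of the relation to width this makes up was not tested. Replicate 1 regions of 1600 to under 1800 bp were found in replicate 2 in 26 of 154 cases (16.9%, 11.3 to 23.8). Those of 2200 to under 2400 bp were found in 140 of 178 cases (78.7%, 71.9 to 84.4). The classes between them had 43.1% (1800 to under 2000 bp) and 65.7% (2000 to under 2200 bp), a rise in stages. Below 2000 bp the share was 22.3% (165 of 739) and from 2000 bp upward 75.6% (885 of 1170). The same split gave 18.2% and 71.1% for 2L, 16.4% and 71.0% for 3L, and 21.9% and 72.9% for the X, with the lower share below 2000 bp on each. Among replicate 1 regions above the median score, the narrower ones were found in 47 of 188 cases (25.0%) and the wider ones in 619 of 766 (80.8%). Among those at or below the median score the shares were 33.3% (256 of 768) and 68.4% (128 of 187).

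By score alone, the share of replicate 1 regions found stayed between 36.6% and 47.6% in the lower 6 of 10 equal classes and rose to 92.7% in the highest (177 of 191). In replicate 2 every region above the median score was found in replicate 1, the 105 narrower as well as the 459 wider ones. Of those at or below the median, 80.2% of the narrower (369 of 460) and 89.5% of the wider (94 of 105) were found. Score rose with width, but not evenly. In replicate 1 the median score was 0.52 to 0.56 in each width class below 2000 bp. It was 0.70 at 2000 to under 2200 bp and 0.92 at 2200 to under 2400 bp. In replicate 2 it was 0.39 to 0.46 in the classes below 2000 bp and 0.82 to 0.99 in those from 2200 bp upward, with no steady rise within either range.

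**Figure D4:**
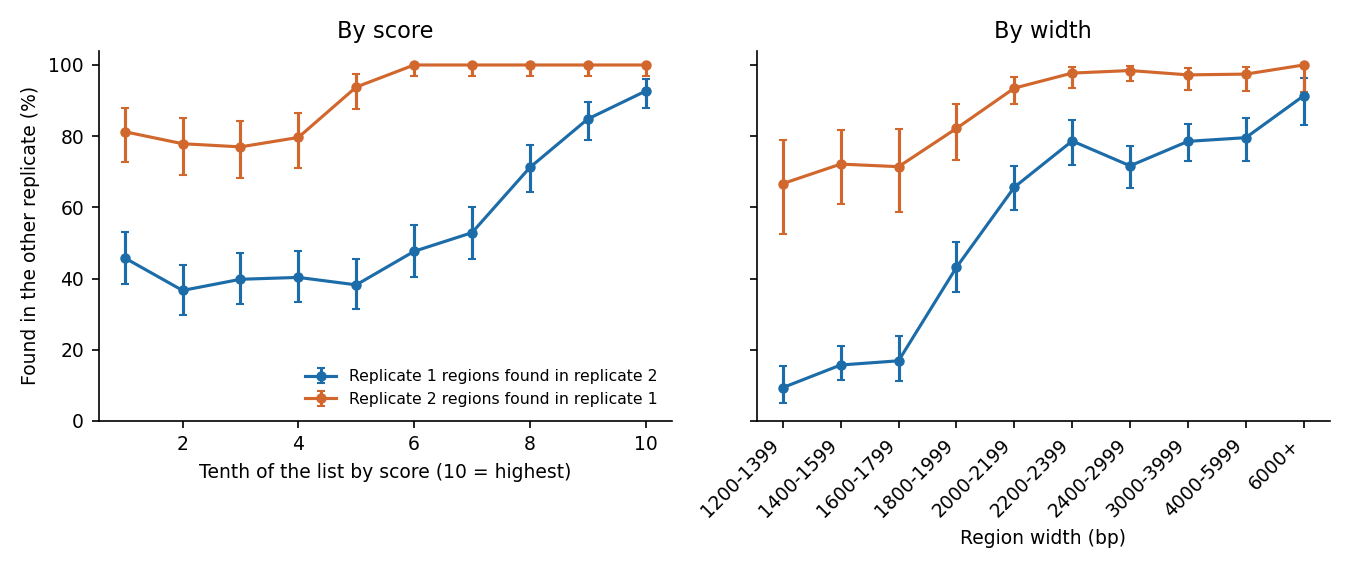
Share of regions found in the other replicate (percent, vertical axis) by class of score within the list (left, 10 is the highest) and by width in bp (right), with exact 95% intervals as bars. In replicate 1 the share is 16.9% at 1600 to under 1800 bp and 78.7% at 2200 to under 2400 bp; in replicate 2 it is 100% in each of the 5 highest score classes.

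Position in a cluster went with recurrence in replicate 1. Its regions in clusters were found in replicate 2 in 63.2% of cases (526 of 832, 59.8 to 66.5), and those with no neighbour within 5 kb in 38.4% (141 of 367, 33.4 to 43.6). Their median widths were 2338 bp and 1989 bp, and the part of width in this was not tested. In replicate 2 the shares were 90.9% (260 of 286) and 91.2% (268 of 294).

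In the combined list, 963 of the 1819 regions were touched by both replicates (52.9%, 50.6 to 55.3), against 44.6% over all sequences. A further 586 were touched by replicate 1 alone (32.2%, against 38.8%), 91 by replicate 2 alone (5.00%, against 3.72%) and 179 by neither (9.84%, against 12.8%). Regions touched by both held 70.9% of the bases of the list. They had a median width of 3111 bp and a median score of 0.73, against 1685 bp and 0.38 with replicate 1 alone, 1589 bp and 0.31 with replicate 2 alone, and 1175 bp and 0.35 with neither. Of the 179 regions touched by neither, 117 were narrower than any replicate member on the 3R interior (the narrowest had 1301 bp). Conversely, 1592 replicate 1 regions (83.4%, against 79.6% over all sequences) and 1097 replicate 2 regions (97.2%, against 97.6%) were found in the combined list.

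Around the midpoints of combined regions, cover by the replicates was a narrow peak on a raised floor. At the midpoint of regions touched by both, 97.2% lay in a replicate 1 region and 90.7% in a replicate 2 region. At 5 kb to the right of it the shares were 38.6% and 28.0%, above the 21.3% and 13.0% covered in the interior as a whole. Around regions touched by neither, the shares at the same distance were 24.0% and 16.2%. At 5 kb to the left they were 29.1% and 15.1%, against 39.5% and 26.8% for regions touched by both. The flanks of regions touched by neither were uneven, with replicate 1 shares of 21.2% at 8.5 kb to the right and 37.4% at 7.25 kb to the left.

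**Figure D5:**
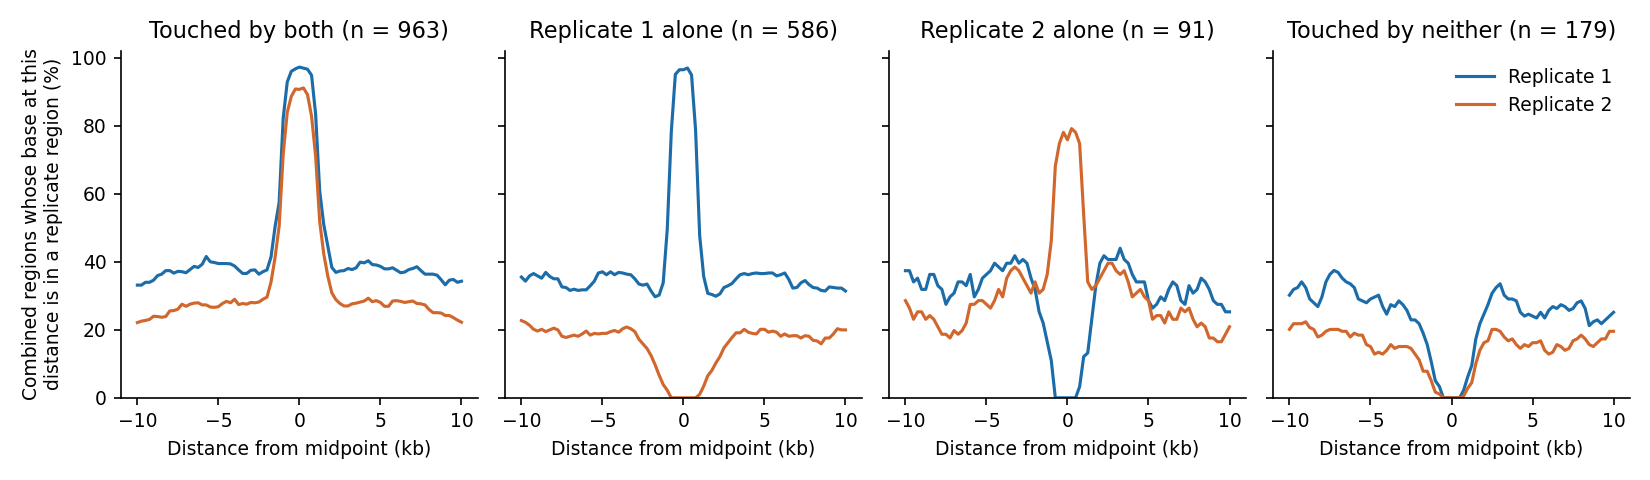
Share of combined KDM4A regions on the 3R interior whose base at a given distance from the midpoint (kb, horizontal axis) lies in a region of replicate 1 or 2 (percent, vertical axis), by which replicates touch the region. At the midpoint the shares are 97.2% and 90.7% for regions touched by both and 0 for those touched by neither, which follows from the grouping.

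The widest combined region on the 3R interior was 3R:5163480-5189354 (25875 bp, score 1.11), of which replicate 1 covered 96.9% and replicate 2 69.2%. Replicate 1 had a single region of 23363 bp over most of it, 3R:5158946-5182308, beside one of 6303 bp. In replicate 2 the stretch was held by 3R:5165103-5172520 (7418 bp, score 1.27) and 3R:5174824-5185309 (10486 bp, score 0.52). The next were 3R:17184196-17205488 (21293 bp, covered to 93.8% and 73.1%), 3R:7573560-7591580 (18021 bp, 92.4% and 75.1%) and 3R:4635578-4651802, the fifth (16225 bp, 97.1% and 78.8%). The fourth, 3R:6143232-6161248 (18017 bp), differed from these. It was covered less by replicate 1 (43.8%) than by replicate 2 (71.1%), and its score of 0.50 was rank 809 of 1819.

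On the 3R interior the best-scoring combined region was 3R:15939514-15940556 (1043 bp, score 2.96). It lay 53.6 kb from the nearest replicate 1 region and 53.7 kb from the nearest replicate 2 region. It is narrower than any replicate member on the 3R interior (the narrowest had 1301 bp) and lies inside one of the region-free stretches, 3R:15885880-16077063 (191.2 kb). The second, 3R:17120510-17126460 (5951 bp, score 2.34), and the fourth, 3R:17126984-17131994 (5011 bp, score 1.95), both met the best-scoring region of replicate 1, 3R:17120477-17130247 (9771 bp, score 3.22). Replicate 2 touched the second with a region of score 1.56 (rank 29 of 1129) and did not touch the fourth. The third was 3R:12084756-12088100 (score 2.15, with replicate 1 at rank 2 and replicate 2 at rank 56). The fifth was 3R:13440266-13446942 (score 1.79, with ranks 9 and 25).

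The best replicate 2 region on the 3R interior was 3R:11053965-11056716 (2752 bp, score 2.51). It was matched by the third-ranked region of replicate 1, 3R:11054051-11056460 (2410 bp, score 2.71), in a bin that was among the 5 densest. The 5 best-scoring regions of each replicate were all touched by the other replicate. In contrast, the fourth of replicate 1, 3R:8326699-8338499 (11801 bp, score 2.39), met 3 regions of replicate 2 whose best score was 0.68, rank 561.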

How the data were processed

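Enriched regions of 2 ChIP libraries of whole larvae, 1 list each, and 1 combined list of the series were used. The deposited lists give each region a start, an end and the authors' enrichment score. Positions are on FlyBase release 5, per the file headers, and the submitters' processing notes name Bowtie 0.12.7, a read aligner. Not given in the sources used here are the program that called regions, the cutoff it applied, what part the input libraries had in it, and how the combined list was built. The scale of the authors' score is not named. Among 91 differences between the 14 highest scores, 29 (replicate 1), 3 (replicate 2) and 37 (combined) were log2 of a ratio of whole numbers up to 30 (tolerance 1e-09), against at most 2 for other logs, so scores were read as log2, with few pairs behind this in replicate 2.

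Regions typed as enriched were kept (1 row typed as depleted was left out). Cover counts bases inside the interval once. Overlap means at least 1 bp shared with any 3R region of the other list. Bins of 100 kb touching a left-out stretch were dropped. The 2L, 3L and X interiors leave out the same 1 Mb and 2 Mb ends. Shares carry exact Clopper-Pearson 95% intervals for counting error only; depth is unknown, and no test across samples was made, since there are 2 replicates of 1 group. Members, lists and tests were chosen with earlier results of these data known. Named were the 5 best-scoring and 5 widest combined regions, the 5 densest and 5 sparsest bins (all 9 tied at 0), the 5 longest stretches free in both replicates and the 5 clusters of each replicate with most regions; other named bins and regions were chosen after their values were seen. The overlap, bin and cluster code was tested on simulated lists. Python 3.11.15, numpy 2.4.6, pandas 2.3.3 and scipy 1.17.1 were used.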

Additional observations from a re-analysis of the deposited data

How the results depend on the processing

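Of 57 alternative values, 25 moved, past the spread between replicates, the 95% interval, 1.5 times a count or, for the Jaccard index and correlations, the second decimal; 32 did not. Keeping regions at or above the median score of their list, the share of replicate 2 regions found was 86.2%, the reverse 52.1%, the Jaccard index 38.8%, mean cover 10.8%, the bin correlation 0.76 and the mean number of clusters 10. With as many replicate 1 regions as replicate 2 has, taken by score, these shares were 68.5% and 65.0%, the Jaccard index 42.5%, the correlation 0.80, the mean number of clusters 37.5 and the combined regions in both replicates 39.0%; by construction fewer regions remain. At 50% reciprocal overlap the shares were 68.4% and 40.4%, and with 50% of a combined region covered 47.2% were in both. With the left-out stretches kept in the Jaccard index was 44.2%. Bins of 50 kb and 200 kb gave correlations of 0.84 and 0.86 (rho at 100 kb 0.88), and 31 of 48 and 4 of 11 dense bins shared. With ties at 0 counted, 58 sparse bins of 62 (replicate 1) and 130 (replicate 2) were shared at 50 kb, and 8 of 11 each at 200 kb. A 2 kb join gave a mean of 24 clusters, with 38 in replicate 1 and 10 in replicate 2. Replicate 1 alone gave cover of 21.3%, a ratio to the other interiors of 0.930 and 113 clusters, and replicate 2 alone 13.0%, 1.05 and 49. No paired analysis was possible because ChIP is the sole group with regions analysed here. Read depth is unknown.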

Other observations

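The combined list had a single row typed as depleted in the series, and it lies in the 3R interior, at 3R:20999270-21000960 (1691 bp, score -0.04). Replicate 2 had an enriched region that begins at the same base, 3R:20999270-21000737, with a score of 0.31. Replicate 1 had no region within 9972 bp of it and the combined list had no enriched region within 17707 bp.

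High scores without support in either replicate were few in the combined list. Of 182 regions with a score of at least 1.11, 5 were touched by neither replicate, and all 5 were narrow, at 1001 to 1205 bp. That is below the narrowest member of either replicate list (1301 bp in replicate 1 and 1306 bp in replicate 2). Beside the best-scoring region at 15939514, they begin at 2006038 (score 1.44), 3521502 (1.37), 18060874 (1.17) and 25585958 (1.16). The next score among regions touched by neither was 0.65. The one at 18060874 also lies in a stretch that was free in both replicates, 3R:18016562-18156444. The one at 25585958 lay 0.933 kb from a replicate 1 region and 0.914 kb from a replicate 2 region.

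All 1819 combined regions of the 3R interior begin and end at even positions, against 473 of 1909 in replicate 1 (24.8%) and 276 of 1129 in replicate 2 (24.4%).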
